A study of Mus musculus with 29 samples.

Results

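The LIM homeobox genes of the embryonic mouse brain were followed through 8 RNA-seq libraries of forebrain and midbrain. They comprise 8 of the 25239 genes in the count tables, taken by symbol: the protein-coding genes Lhx1, Lhx2, Lhx4, Lhx5, Lhx6, Lhx8 and Lhx9, and Lhx1os, a long non-coding RNA gene beside Lhx1. Lhx3, the remaining gene with an Lhx symbol in the tables, was below the filter on low counts and is no member; its levels lay between 0 and 0.546 CPM (counts scaled to an equal library total), against 0 to 2.21 CPM for Lhx4, the member with the fewest counts. The genes were chosen by family name with measured values in view: the higher level of Lhx1 in knockout forebrain, the tissue difference of Lhx1 and Lhx2, and counts above the filter. Those values are therefore given as a description.

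All embryos were of stage E11.5. The 4 groups were wild-type forebrain, forebrain of embryos labelled hs267-853 knockout, wild-type midbrain, and midbrain of embryos labelled hs654 knockout, with 2 libraries each. The hs names are those of elements in the VISTA collection of tested developmental enhancers; the zygosity of the deletions and the strain of the embryos are not given in the sources used here. Each library was made from poly(A) RNA of whole dissected tissue pooled over several embryos, so p-values measure the spread between pools. The other 21 of the series' 29 samples, enhancer-capture Hi-C libraries, were not used here.

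Gene counts summed to between 9051632 and 18024406 per library, and 3 counts, taken as the floor of detection, corresponded to 0.170 to 0.328 CPM. The first principal component, with 72.1% of the variance, separated the tissues. The second, with 6.33%, set replicate 1 of the hs267-853 knockout forebrain at 33.7 against -18.3 to 1.66 for the other libraries. Several of the changes in knockout forebrain, though not the differences between knockout tissues, are therefore also given without this library. Emx2, a homeobox gene of the dorsal telencephalon, averaged 141 CPM in wild-type forebrain and 19.0 CPM in wild-type midbrain. En2, a homeobox gene of midbrain and anterior hindbrain, had no count in any forebrain library and averaged 144 CPM in wild-type midbrain. Both tissue labels thus fitted these 2 markers. Of the lists they come from, all 6 forebrain genes were higher in wild-type forebrain, and 6 of 7 midbrain and isthmus genes were lower. Fgf8 was the exception, with a log2 difference of 0.55 (SE 0.279), forebrain over midbrain.

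LIM homeodomain proteins are transcription factors with a pair of zinc-binding LIM domains and a DNA-binding homeodomain. The LIM domains bind the adaptor Ldb1 (or Ldb2), which dimerises and bridges several factors into one complex, with Ssbp proteins protecting Ldb1 from turnover mediated by the ubiquitin ligase Rlim. LIM-only proteins (Lmo1 to Lmo4) lack the homeodomain and compete for the same adaptor. In the developing nervous system the combination of these factors in a neuron helps to set its subtype. The genes fall into related pairs, of which Lhx1 with Lhx5, Lhx2 with Lhx9, and Lhx6 with Lhx8 are measured here with both partners.

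The gene for Lhx1, a factor of postmitotic neurons in diencephalon, midbrain and hindbrain that is also required in the early head organiser, lies on mouse chromosome 11 at chr11:84517975-84525534 on the minus strand (RefSeq, GRCm38.p6, the assembly also called mm10). Lhx1os lies at chr11:84525660-84535831 on the plus strand. The annotated transcription starts point away from each other and are 126 bases apart, and the annotated genes do not overlap. Because of this head-to-head arrangement, the Lhx1 promoter window is shown, from 250 bases before to 50 bases after its start, 5′ to 3′ on the minus strand at chr11:84525485-84525784. Capitals mark its 1 CCAAT box, which reads as ATTGG on this strand.
Lhx1: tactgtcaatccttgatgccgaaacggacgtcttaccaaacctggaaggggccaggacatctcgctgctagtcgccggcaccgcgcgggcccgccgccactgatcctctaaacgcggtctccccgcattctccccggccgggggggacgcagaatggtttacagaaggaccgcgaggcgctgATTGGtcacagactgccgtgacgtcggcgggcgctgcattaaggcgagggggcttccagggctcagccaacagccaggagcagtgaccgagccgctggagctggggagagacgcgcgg
The Lhx1os window of the same length, chr11:84525410-84525709, shares 225 bases with this one, chr11:84525485-84525709. The CCAAT box at chr11:84525598-84525602 lies in the shared stretch, with its first base 68 bases before the Lhx1 start and 62 bases before the Lhx1os start. The Lhx1 window has 65.7% G and C, against a median of 52.7% over 32851 RefSeq promoter windows.

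A CCAAT box on either strand is common, and stood in 37.4% of all those windows. Among the genes followed here, 7 had at least 1 window (10 windows in all; Lhx5 had none in the table), and 5 of the 10 windows held the box, the same box being counted for Lhx1 and Lhx1os. The homeodomain core TAATTA was in 5.29% of all windows and in none of the 10, and the full cyclic AMP element TGACGTCA in 1.79% and in none of the 10. The TATA motif TATAAA was in 1 of the 10 (13.6% of all windows), and the GC box GGGCGG in 4 of the 10 (35.7% of all windows). All motifs were searched on both strands, and none of them contains another.

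All 8 genes differed between wild-type forebrain and wild-type midbrain, 3 being higher in forebrain (Lhx2, Lhx6, Lhx8) and 5 higher in midbrain (Lhx1, Lhx1os, Lhx4, Lhx5, Lhx9). Of all 15383 genes tested, edgeR's quasi-likelihood test put 29.6% past the adjusted threshold of 0.05 in this comparison, 14.3% as higher and 15.3% as lower in forebrain. Pools of the 2 tissues were apart for each of the 8, and for 65.9% of all genes. The median log2 difference of the 8, forebrain over midbrain, was -0.90, beside 0.0012 over all genes. Because Lhx4 and Lhx8 passed the filter on low counts only through the tissue in which they are high, they had to differ, and the count of 8 is a description. The other 6 had at least 10 counts in each of the 8 libraries. In bulk tissue, fewer cells of a type and less RNA per cell cannot be told apart.

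**Figure D1:**
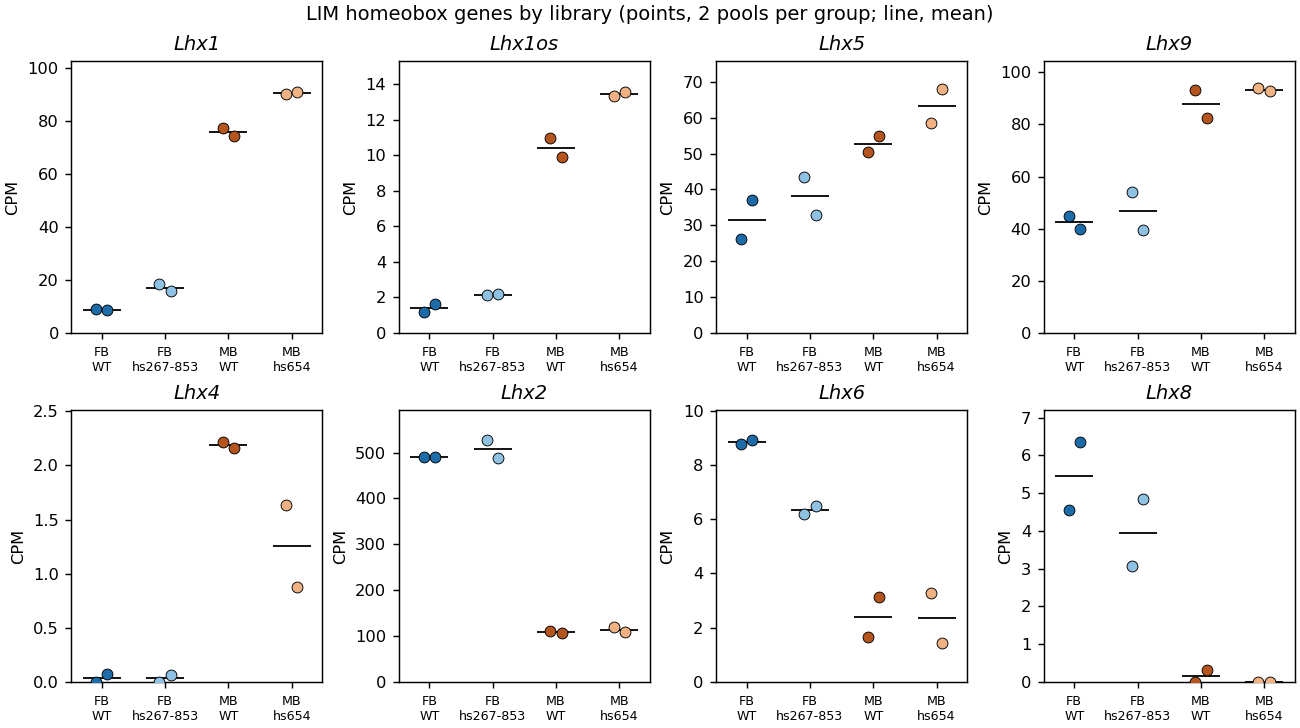
CPM (vertical axes, scaled by edgeR's TMM) of the 8 genes in the 8 libraries, by tissue (FB, forebrain; MB, midbrain) and genotype; each point is 1 library of pooled tissue and each line a group mean. Lhx2, Lhx6 and Lhx8 stand higher in forebrain, the other 5 in midbrain, and Lhx1 in hs267-853 knockout forebrain (18.5 and 15.7 CPM) lies above wild-type forebrain (8.89 and 8.51 CPM).

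Lhx1 measured 8.89 and 8.51 CPM in the wild-type forebrain pools and 77.3 and 74.4 CPM in the wild-type midbrain pools. Its level was 18.5 and 15.7 CPM in hs267-853 knockout forebrain and 90.2 and 91.0 CPM in hs654 knockout midbrain. The 4 groups did not overlap (between genotypes, 31.1% of all genes in forebrain and 36.7% in midbrain did not). Their order from highest to lowest was knockout midbrain, wild-type midbrain, knockout forebrain and wild-type forebrain. Between the wild-type tissues the log2 difference was -3.12 (SE 0.107), an 8.71-fold higher level in midbrain, from 8.70 ± 0.267 to 75.9 ± 2.02 CPM (SD, n = 2). Between the knockout tissues it was -2.40 (SE 0.0965). No p is given for Lhx1 here, since its levels were known when the list was made.

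Lhx1os, whose function is not well known, followed the same order of groups. It measured 1.15 and 1.63 CPM (17 and 21 counts) in wild-type forebrain, 2.16 CPM in both knockout forebrain pools (38 and 33 counts), 10.9 and 9.90 CPM in wild-type midbrain and 13.3 and 13.5 CPM in knockout midbrain. No group overlapped its neighbour (nor did 31.1% of all genes between genotypes in forebrain and 36.7% in midbrain). The forebrain values rest on few counts. The log2 difference between the wild-type tissues was -2.91 (SE 0.240, adjusted p = 1.22e-06), and between the knockout tissues -2.63 (SE 0.218, adjusted p = 1.37e-06).

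The share of Lhx1os in the summed counts of Lhx1 and Lhx1os lay between 10.4% and 16.0%, while the sum itself ranged from 131 to 1395 counts. It was 17 of 148 and 21 of 131 counts in wild-type forebrain (exact 95% binomial intervals 6.84% to 17.8% and 10.2% to 23.5%) and 10.4% and 12.1% in hs267-853 knockout forebrain (7.49% to 14.0% and 8.47% to 16.6%). In midbrain it was 12.4% and 11.7% in the wild type (10.7% to 14.2% and 9.86% to 13.8%) and 12.9% and 13.0% in the hs654 knockout (11.0% to 14.9% and 10.9% to 15.3%). Group means lay between 11.3 ± 1.17% and 13.8 ± 3.21% (SD, n = 2), and the intervals of all 8 libraries overlapped. These intervals cover counting error only, and those of wild-type forebrain are too wide to show a constant share. Whether the counting used the read strand is not given in the sources used here, so reads of Lhx1 that run past its annotated start could be among those of Lhx1os.

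**Figure D2:**
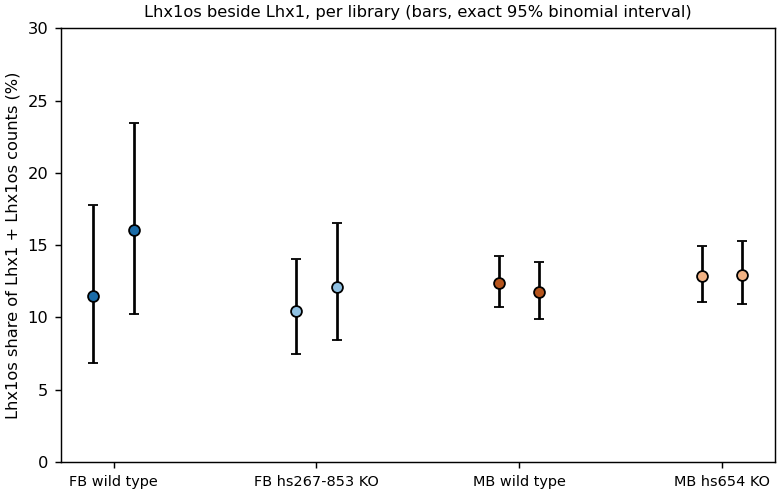
Share of Lhx1os (percent, vertical axis) in the summed counts of Lhx1 and Lhx1os for each of the 8 libraries by group; bars are exact 95% binomial intervals. The 8 shares lie between 10.4% and 16.0%, with the widest intervals in wild-type forebrain, where the counts are lowest.

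Lhx5, the partner of Lhx1, is required for formation of the hippocampus and acts with Lhx1 in spinal interneurons and Purkinje cells. It measured 26.1 and 36.9 CPM in wild-type forebrain, 43.5 and 32.8 CPM in knockout forebrain, 50.4 and 55.0 CPM in wild-type midbrain and 58.5 and 68.1 CPM in knockout midbrain. The forebrain groups overlapped each other, and both lay below the midbrain groups. The wild-type tissues differed by -0.75 on the log2 scale (SE 0.159, adjusted p = 0.00338), a smaller difference than that of Lhx1, and the knockout tissues by -0.72 (SE 0.156, adjusted p = 0.00342). The latter call was lost without replicate 2 of the knockout midbrain, at -0.61 with an adjusted p of 0.0526.

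Counts of the 2 partners shifted toward Lhx1 in midbrain. Lhx1 took 25.4% and 18.7% of the summed Lhx1 and Lhx5 counts in wild-type forebrain and 60.5% and 57.5% in wild-type midbrain. In the knockouts it took 29.9% and 32.4% in forebrain and 60.6% and 57.2% in midbrain. Transcript lengths enter such a share, so only its change between libraries is read. In midbrain the wild-type and knockout shares overlapped; in forebrain both knockout pools lay above both wild-type pools, which restates the Lhx1 values that led to the list.

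Lhx9 takes part in gonad formation and marks thalamic and dorsal midbrain neurons. Its level was 45.0 and 40.0 CPM in wild-type forebrain, 54.2 and 39.5 CPM in knockout forebrain, 93.3 and 82.6 CPM in wild-type midbrain and 93.9 and 92.8 CPM in knockout midbrain. Genotypes overlapped within each tissue, and the tissues did not. The log2 difference between tissues was -1.05 in the wild type (SE 0.124, adjusted p = 3.55e-05) and -0.99 in the knockouts (SE 0.123, adjusted p = 5.74e-05).

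Its partner Lhx2, a selector of cortical identity that is also needed for eye formation, went the other way. The wild-type forebrain pools measured 490.4 and 490.6 CPM, the knockout forebrain pools 527 and 489 CPM, the wild-type midbrain pools 110.5 and 106 CPM, and the knockout midbrain pools 120.4 and 108 CPM. The tissues lay far apart, and in each tissue the genotypes overlapped. The log2 difference was 2.18 (SE 0.0645) in the wild type, known when the list was made, and 2.15 (SE 0.0650) in the knockout libraries; no p is given. Lhx2 overlaps the predicted genes Gm27197 and Gm13584 in the annotation, so reads in the overlap could be missing from its counts.

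Lhx2 took between 90.7% and 92.5% of the summed Lhx2 and Lhx9 counts in the 4 forebrain libraries. In the 4 midbrain libraries it took between 53.8% and 56.3%. Opposite tissue differences of the partners thus add up in this share, which hardly varied with genotype.

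Lhx6 and Lhx8 mark the ventral telencephalon. Lhx6 acts downstream of Nkx2-1 in interneurons born in the medial ganglionic eminence, and Lhx8 is needed for cholinergic neurons of the basal forebrain. Lhx6 measured 8.76 and 8.90 CPM in wild-type forebrain, 6.18 and 6.48 CPM in knockout forebrain, 1.64 and 3.12 CPM in wild-type midbrain and 3.27 and 1.42 CPM in knockout midbrain. Both forebrain groups stood above midbrain. They did not overlap each other, as was so for 31.1% of all genes, while the midbrain groups did. The wild-type tissues differed by 1.92 on the log2 scale (SE 0.330, adjusted p = 0.000780). In the knockout libraries the difference was 1.39 (SE 0.347, adjusted p = 0.00876), and the call was lost without replicate 2 of the knockout midbrain, at 0.95 with an adjusted p of 0.0970.

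Lhx8 was measured at 4.55 and 6.35 CPM in wild-type forebrain and 3.06 and 4.85 CPM in knockout forebrain. In midbrain it had 0 and 4 counts in the wild type, at most 0.319 CPM, and no count in either knockout pool. The summed counts of 149 in wild-type forebrain and 4 in wild-type midbrain give a ratio of 38.2 after scaling (95% interval 14.6 to 142, counting error of the summed reads only). The ratio describes the size of a difference that the filter fixed in advance. Against the floor, knockout forebrain was at least 13.5-fold higher than knockout midbrain. As a share of Lhx6 and Lhx8 counts, Lhx6 took 65.8% and 58.4% in wild-type forebrain and 66.9% and 57.2% in knockout forebrain, so the balance of the pair overlapped between genotypes.

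Lhx4, a factor of pituitary and motor neuron development, was nearly absent from forebrain, with 0 and 1 count in the wild type and 0 and 1 count in the knockout. It measured 2.21 and 2.16 CPM (35 and 27 counts) in wild-type midbrain and 1.63 and 0.874 CPM (19 and 8 counts) in knockout midbrain. The ratio of midbrain to forebrain was 60.5 in the wild type (95% interval 10.5 to 2429, counting error of the summed reads only) and 42.7 in the knockouts (7.05 to 1750). Here too the filter fixed that the tissues differ.

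The 8 genes had the same directions and were past the threshold between knockout forebrain and knockout midbrain, a comparison in which 29.4% of all genes were called, 14.6% as higher and 14.8% as lower in forebrain. Their pools did not overlap between these groups, as was so for 64.4% of all genes. This count is a description too, since Lhx4 and Lhx8 had to differ and the levels of Lhx1 and Lhx2 were known. Deletion and tissue differ together here. With a minimum mean of 50 counts, Lhx4 and Lhx8 are no longer tested, and 6 of 6 are called in both tissue comparisons.

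**Figure D3:**
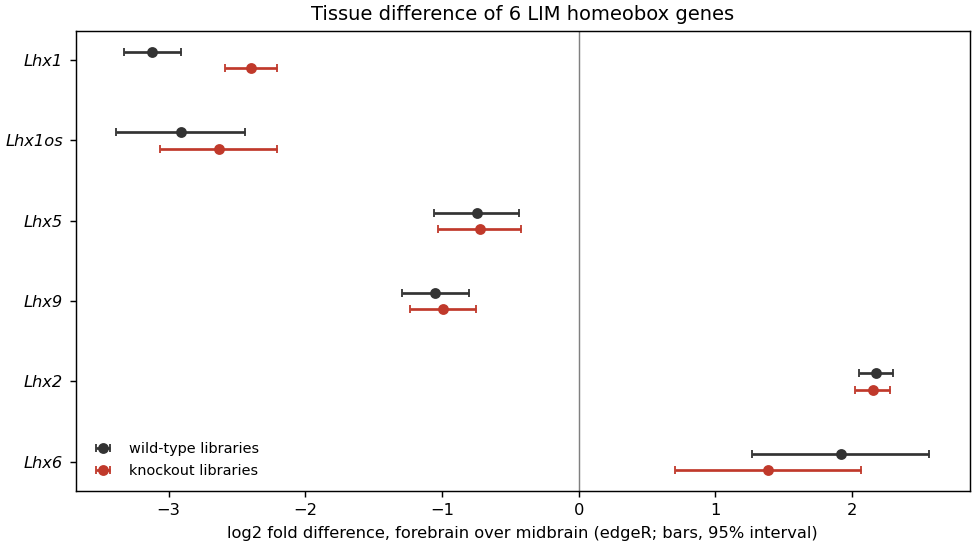
Log2 difference, forebrain over midbrain (horizontal axis, edgeR), of the 6 genes with at least 10 counts in every library, between wild-type libraries (black) and between knockout libraries (red); bars are 95% intervals. Lhx2 and Lhx6 lie right of 0 and the other 4 left of it in both; Lhx1 moves from -3.12 to -2.40.

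RNA of neuronal genes differed between the tissues in the same direction as that of the midbrain-high members. All 9 genes of a neuronal list (among them Tubb3, Dcx and Stmn2) were lower in wild-type forebrain, with a median log2 difference of -0.91 from -0.58 (Elavl3) to values such as -3.10 (Nefm, a neurofilament gene) and, lower still, Nefl; their summed level was 1668 to 1932 CPM in wild-type forebrain and 3709 to 3839.9 CPM in wild-type midbrain. Of 9 genes of the ganglionic eminences, where Lhx6 and Lhx8 are made, 6 were higher and 2 lower in wild-type forebrain, with a median of 1.94; their summed level was 229 to 279 CPM in forebrain and 100.5 to 102 CPM in midbrain. The part of cell composition in the members' differences was not tested.

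The genes whose profile over the 8 libraries was most like that of a member were found by the root mean square (RMS) difference of log2 CPM, each profile centred on its own mean, among 14320 genes. The median RMS difference over these genes was 1.44 for Lhx1, 1.09 for Lhx2, 0.474 for Lhx5 and 0.565 for Lhx9. Closest to Lhx1 were Cdk5r2 (0.160), Trpc5 (0.183) and Pkib (0.187). Trpc5 and Pkib averaged only 0.397 and 0.218 CPM in wild-type forebrain, near the floor of detection, so their places rest on few forebrain counts. Cdk5r2, which encodes an activator of the kinase Cdk5, averaged 6.56 CPM in forebrain of the wild type and 10.8 CPM in that of the knockout, and 62.4 and 70.2 CPM in the corresponding midbrain groups.

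Nearest to Lhx2 were Id4 (0.0816), an inhibitor of bHLH factors, Inka2 (0.119) and Mpped1 (0.127). Lhx5 had Gm20735 (0.0949), Diras1 (0.0989) and Pcbd1 (0.114) as its closest profiles. For Lhx9 these were Tmem198 (0.0471), the planar polarity cadherin gene Celsr3 (0.0564) and the neuronal reticulon gene Rtn1 (0.0572). Among the members themselves, Lhx1 and Lhx1os differed by 0.197, Lhx5 and Lhx9 by 0.252, and Lhx2 and Lhx6 by 0.454. The partners Lhx1 and Lhx5 were farther apart (1.04), as were Lhx2 and Lhx9 (1.60). All 8 libraries entered this measure, so tissue dominates it.

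Loss of hs654 was compared in midbrain. None of the 8 genes, and none of the 15383 genes tested (0.00%), passed the adjusted threshold in edgeR, and DESeq2 and limma-voom called none either; 3.96% of all genes had an unadjusted p under 0.05 in edgeR. Lhx1 was the single member among these: its pools measured 90.2 and 91.0 CPM against 77.3 and 74.4 CPM, a log2 change of 0.25 (SE 0.0865, 95% interval 0.085 to 0.42, adjusted p = 0.992 by edgeR).

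For Lhx1os the log2 change in hs654 knockout midbrain was 0.36 (SE 0.188), for Lhx5 0.26 (SE 0.154), for Lhx9 0.085 (SE 0.120), for Lhx2 0.077 (SE 0.0657) and for Lhx6 0.051 (SE 0.391). Lhx4, on 62 counts in the wild type and 27 in the knockout, stood at -0.77 (SE 0.514). Lhx8 had 0 and 4 counts in the wild type and none in the knockout, and no fold is given. Pools did not overlap between genotypes for Lhx1, Lhx1os and Lhx5, which were higher, and Lhx4, which was lower; 36.7% of all genes did not overlap in this comparison, 17.9% being higher and 18.8% lower. All 9 neuronal genes also had values above 0 (median 0.12, none past the adjusted threshold), and all 8 erythroid genes values below 0 (median -0.52, none past it), with a median of 0.022 without wild-type replicate 1; their part in the values of Lhx1, Lhx1os and Lhx5 was not tested.

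Forebrain of hs267-853 knockout embryos had Lhx1 at 18.5 and 15.7 CPM, against 8.89 and 8.51 CPM in the wild type, the difference with which the list began. Every knockout pool lay above every wild-type pool. The log2 change was 0.98 (SE 0.117), a 1.97-fold higher mean. It was 0.85 without replicate 1 of the knockout, the library that stands apart, and 1.09 without replicate 2. Lhx1 was 1 of 2 genes called over the whole table (0.0130%), and the call is a description here; it was lost when either wild-type forebrain pool or either knockout midbrain pool was left out (adjusted p from 0.0601 to 0.139 in edgeR).

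The other members show how far the family went with Lhx1. Lhx1os had a log2 change of 0.64 (SE 0.280), with both knockout pools (2.16 CPM) above the wild-type pools (1.15 and 1.63 CPM); leaving out 1 library at a time moved it between 0.41 and 0.90. For Lhx5 the change was 0.29 (SE 0.160), with overlapping pools; it was 0.066 without replicate 1 of the knockout and 0.47 without replicate 2, and 0.051 and 0.55 without replicate 1 and 2 of the wild type. Lhx2, the member with the most counts, stood at 0.051 (SE 0.0601, 95% interval -0.067 to 0.17), and Lhx9 at 0.14 (SE 0.127); both signs turned without replicate 1 of the knockout, to -0.0042 and -0.11.

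Both ventral genes had values below 0. Lhx6 stood at -0.48 (SE 0.291), with knockout pools of 6.18 and 6.48 CPM below wild-type pools of 8.76 and 8.90 CPM, and Lhx8 at -0.46 (SE 0.407), with overlapping pools. The Lhx8 value was -0.16 without replicate 1 of the knockout and -0.82 without replicate 2, and -0.69 and -0.21 without replicate 1 and 2 of the wild type. Lhx4 had 1 count in each genotype, and no fold is given. Pools did not overlap for 2 genes that were higher (Lhx1, Lhx1os) and 1 that was lower (Lhx6), in a comparison where 31.1% of all genes did not overlap, 17.2% being higher and 13.9% lower. Summed CPM of the ganglionic eminence list was 229 to 279 in wild-type and 206 to 316 in knockout forebrain, and the ranges overlapped; its median change was 0.060, and 0.31 or -0.32 when replicate 2 or replicate 1 of the knockout was left out.

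**Figure D4:**
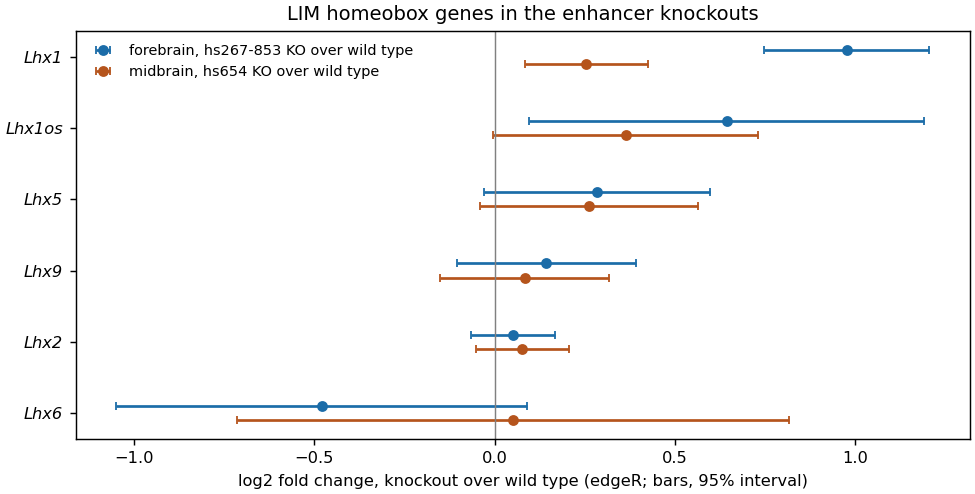
Log2 change, knockout over wild type (horizontal axis, edgeR), of 6 genes in forebrain of hs267-853 knockouts (blue) and midbrain of hs654 knockouts (orange); bars are 95% intervals. Lhx1 in forebrain lies at 0.98 and in midbrain at 0.25; the forebrain points are a description, because the list was made with the Lhx1 value known.

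The change of Lhx1 in midbrain minus that in forebrain was -0.72 (SE 0.146). It shares the forebrain libraries that led to the list, and is likewise a description: none of the 8 genes was past the adjusted threshold for this difference, where 0.00650% of all genes were. Lhx1 was past it in edgeR without a filter on low counts (adjusted p = 0.00638). That setting called 111 of 20235 genes for the difference, against 1 of 15383 with the filter. With 1 library left out, the Lhx1 value lay between -0.83 and -0.60. For Lhx1os the difference was -0.28 (SE 0.336), for Lhx6 0.53 (SE 0.489), and for Lhx2, Lhx5 and Lhx9 between -0.059 and 0.025.

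Regional marker lists were read beside the forebrain value of Lhx1, a gene that was itself higher in midbrain. The lists were chosen with earlier results of these data known, so their values and counts are a description. Of 8 diencephalon genes, all of which were also counted in midbrain and were higher there, 6 stood above 0 in hs267-853 knockout forebrain, with a median log2 change of 0.56 beside 0.0078 over all genes; 5 had an unadjusted p under 0.05 in edgeR, as had 4.78% of all genes, and none was past the adjusted threshold. Their summed level was 138 to 149 CPM in wild-type and 156 to 190 CPM in knockout forebrain. Olig3, a bHLH factor of the thalamic progenitor domain, measured 4.07 and 7.74 CPM in wild-type pools against 12.8 and 13.1 CPM in knockout pools, a change of 1.15 (SE 0.233, adjusted p = 0.272). Barhl2, a diencephalic homeobox gene, stood at 0.62 (SE 0.137) and Irx3 at -0.25 (SE 0.266). The median was 0.63 without replicate 1 of the knockout and 0.36 without replicate 2.

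The median of the hypothalamus list changed sign with 1 library. Otp, a homeobox factor of neuroendocrine neurons, measured 9.42 CPM in replicate 1 of the knockout and 2.03 CPM in replicate 2, against 0.747 and 1.24 CPM in the wild type. Sim1 measured 5.16 and 1.38 CPM, against 1.29 and 1.86 CPM. Fezf1, a forebrain zinc finger factor, measured 45.6 and 33.3 CPM, against 29.0 and 26.2 CPM, a change of 0.52 (SE 0.220), and Nkx2-1, a ventral forebrain homeobox factor, stood at -0.20 (SE 0.155). The median of these 4 genes was 0.81, and -0.18 without replicate 1 of the knockout. Rax and Six6, the other 2 listed genes, were below the filter, with at most 1.20 CPM in any library.

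Other lists had medians nearer 0 or below it. The median was -0.088 for 8 genes of midbrain GABAergic neurons, which went both ways (summed level 65.8 to 83.2 CPM in wild-type and 65.7 to 84.0 CPM in knockout forebrain). Tal2 (0.81, SE 0.307) and Helt (0.79, SE 0.345), both transcription factors of that fate, were the 2 with an unadjusted p under 0.05 in edgeR, and Gata3 (-0.50, SE 0.316) and Sox14 (-1.17, SE 1.06) had the lowest values. The median was 0.053 for 10 genes of Cajal-Retzius cells and cortical hem, and 0.042 for the 9 neuronal genes. The neuronal genes summed to 1518 and 2165 CPM in the knockout pools, on either side of the wild-type pools (1668 and 1932 CPM). Tubb3, for example, measured 702 CPM in replicate 1 of the knockout and 487 CPM in replicate 2, against 623 and 531 CPM. Of 7 genes of midbrain and isthmus, 4 had values above 0 and 2 below it, with a median of 0.15, and En2 had no count in any forebrain library. Others were counted there: Fgf8 measured 9.19 and 8.32 CPM in knockout and 8.42 and 5.65 CPM in wild-type forebrain. En1 measured 2.84 and 4.78 CPM against 6.45 and 3.95 CPM. All 9 mesenchyme genes had values below 0, with a median of -0.33 and none past the adjusted threshold; the median was -0.078 without replicate 1 of the knockout, where 2 genes had values above 0, and -0.74 without replicate 2. The part of tissue composition in the Lhx1 value was not tested.

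**Figure D5:**
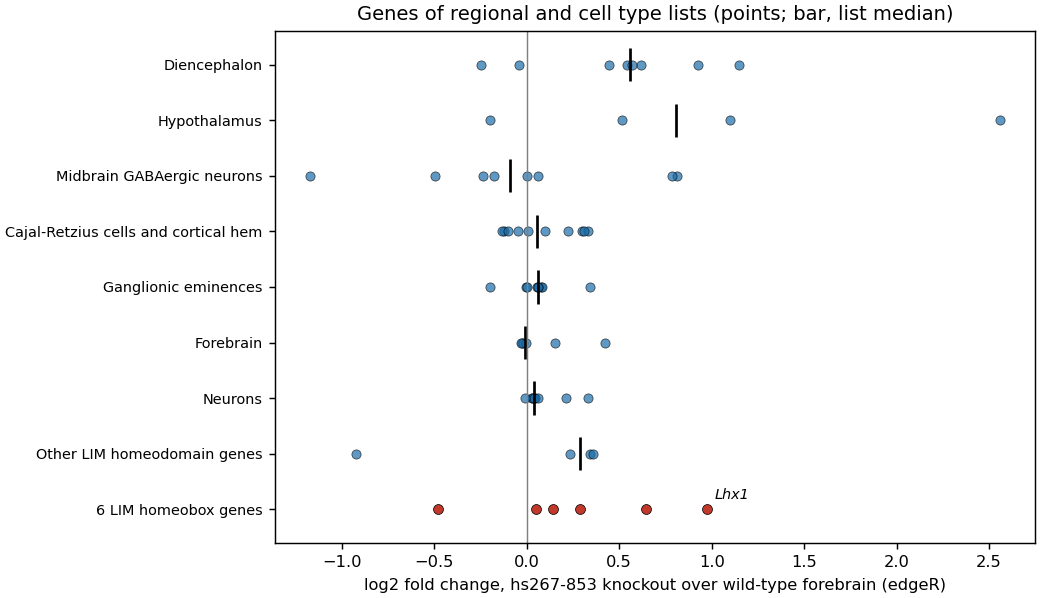
Log2 change in hs267-853 knockout over wild-type forebrain (horizontal axis, edgeR) for the tested genes of 8 lists (blue points, 1 per gene; black bars, list medians) and for 6 LIM homeobox genes (red points). The diencephalon list has its median at 0.56 and the hypothalamus list at 0.81, or -0.18 without 1 knockout library; Lhx1 lies at 0.98.

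The rest of the LIM pathway was taken from 3 lists. Of 5 other LIM homeodomain genes, Lhx3 was not tested, and 2 of the 4 tested were lower in wild-type forebrain: Isl2, a motor and projection neuron factor, by a log2 difference of -2.90 (SE 0.467, adjusted p = 0.000475), and Lmx1a, a factor of midbrain dopaminergic progenitors and roof plate, by -1.41 (SE 0.164, adjusted p = 3.11e-05). Isl1, which acts in motor, striatal and hypothalamic neurons, stood at 0.56 (SE 0.204, adjusted p = 0.0553). The list's median was -1.01, and 15.3% of all genes were called lower in this comparison. Between the knockout tissues 3 of the 4 were called lower and Isl1 higher (0.96, SE 0.209), beside 14.8% and 14.6% of all genes. In hs267-853 knockout forebrain none of the 4 was called, with a median of 0.29, from -0.93 (SE 0.330) for Lmx1b to 0.36 (SE 0.170) for Lmx1a. The median was 0.18 without replicate 1 of the knockout and -0.063 without replicate 2. Lmx1b, another gene of midbrain dopaminergic progenitors, measured 5.73 and 18.0 CPM in the knockout pools against 24.9 and 19.3 CPM, and its change was -0.30 without replicate 1 and -1.95 without replicate 2. None was called in hs654 knockout midbrain, with a median of 0.17.

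LIM-only genes split between the tissues: of 4, Lmo2 was higher in wild-type forebrain (0.82, SE 0.131) and Lmo3 lower (-0.99, SE 0.193), and Lmo1 and Lmo4 were not called. Of 6 cofactor genes, 3 were called higher in wild-type forebrain and none lower, with a median of 0.20. Over all genes the shares were 14.3% and 15.3%. Ldb2 had the largest difference among the 6 (1.05, SE 0.178), and Rlim the lowest value (-0.11, SE 0.0585). Between the knockout tissues 2 were called higher and Rlim lower (-0.20, SE 0.0590), beside 14.6% and 14.8% of all genes. Ldb2 was not called there (0.50, SE 0.183). Between knockout and wild type none of these 10 genes was called in either tissue. The LIM-only median was 0.14 in forebrain and 0.049 in midbrain, and the cofactor median 0.040 and 0.047. Summed over the 6 cofactors, the level ranged from 826 to 951 CPM over all 8 libraries.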

How the data were processed

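The deposited values are raw counts per gene symbol, 1 table per library, with no normalization by the authors. Per the submitters' processing notes, STAR, HTSeq and DESeq2 were used with build mm10; their versions and the strand setting are not given in the sources used here. Rows that name no gene were left out; of the counts in genes and outside them, 55.4% to 58.9% lay in no feature. Titles gave each library its tissue, genotype and replicate number.

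Counts were fitted with edgeR 4.0.16 in R 4.3.3 (quasi-likelihood test, TMM scaling, filterByExpr), with all 8 libraries and a mean per group, tested two-sided and adjusted by Benjamini-Hochberg over 15383 genes. A gene was called at an adjusted p under 0.05. A standard error (SE) is the log2 fold change divided by the square root of its F statistic, and intervals are 1.96 SE wide on either side. CPM uses TMM-scaled totals, and log2 CPM a prior count of 2. The fit was also run on simulated counts drawn with its own estimates of the spread. Its power to detect a change is not reported here. Alternatives were RLE scaling, 2 other filters, DESeq2 1.42.0, limma-voom (limma 3.58.1), the replicate number as a block, only the libraries compared, and leaving out each library. List values without single libraries were added after seeing the data.

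The members and lists were chosen with earlier results of these data known. All members are named; profile neighbours are the 3 nearest genes with a mean of at least 1 CPM, for members with at least 10 CPM, and list examples are mainly the highest and lowest values, with others picked after their values were seen.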

Additional observations from a re-analysis of the deposited data

How the results depend on the processing

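The number of members called between tissues was 8 in both comparisons, where 29.6% (wild type) and 29.4% (knockout) of all genes were called. The filter fixed the calls of Lhx4 and Lhx8. Those of Lhx5 and Lhx6 between knockout tissues were lost without knockout midbrain replicate 2, as given above. With a minimum mean of 50 counts, 6 of 6 members tested were called, beside 3991 (wild type) and 3972 (knockout) of 12388 genes. Under the other alternatives that kept every library of both groups, the number of members called was 8. In hs654 knockout midbrain it was 0 in all 15 alternatives. In hs267-853 knockout forebrain it was 1, and 0 with limma-voom (adjusted p of Lhx1 0.232) or only the 4 forebrain libraries (1.00). With 1 library left out it was 0 to 1: the adjusted p of Lhx1 was 0.139 and 0.0606 without wild-type forebrain replicate 1 and 2, and 0.0601 and 0.0631 without knockout midbrain replicate 1 and 2. Over the alternatives the log2 change of Lhx1 stayed between 0.85 and 1.09. For the difference between the knockout effects the number was 0, and 1 in edgeR without a filter on low counts (adjusted p of Lhx1 0.00638). The Lhx1 value for this difference lay between -0.83 and -0.60 with 1 library left out. The cause of these changes between settings was not tested.

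Signs turned only when a library was left out. The ranges were then -0.0042 to 0.10 for Lhx2 and -0.11 to 0.35 for Lhx9 in hs267-853 knockout forebrain, and -0.70 to 0.55 for Lhx6 in hs654 knockout midbrain. For the difference between the effects they were -0.035 to 0.098 for Lhx2, -0.29 to 0.21 for Lhx5, -0.21 to 1.03 for Lhx6 and -0.27 to 0.19 for Lhx9.

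Over the whole table, without a filter on low counts 22 genes were called in hs654 knockout midbrain, 161 in hs267-853 knockout forebrain (against 2) and 111 for the difference (against 1). DESeq2 called 13 and 4 in the latter 2. Without knockout forebrain replicate 2, 209 and 64 were called. The labels give same-numbered replicates nothing in common but the number. Correlations of their deviations, between genotypes in each tissue and between tissues in each genotype, lay between -0.0255 and 0.0432. With 1 difference per group, these cannot show whether such pools shared a batch. With a replicate block, 8, 8, 0, 1 and 0 members were called, as without it, and 3 genes in place of 2 over the table in hs267-853 knockout forebrain. Depth limits Lhx4 in forebrain and Lhx8 in midbrain, where each library had at most 4 counts.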
